A study of Mus musculus with 8 samples.

Results

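The Th1 axis of the mouse spleen was read through 7 genes, taken by symbol from the 32285 genes in the deposited matrices: Tbx21, Cxcr3, Ifng, Nkg7, Ccl5, Ifngr1 and Il12rb2. All 7 were found. They were followed in B-like, CD4 T-like, CD8 T-like and NK-like cells, by genotype and by cell sort. Single-cell RNA was measured in 8 spleen libraries, which fall into 4 groups of 2. The cKO mice carried Eif3e fl/fl, Cγ1Cre and the reporter Rosa26-YFP LSL, and the control mice carried Cγ1Cre and Rosa26-YFP LSL, so Cre and the reporter were shared by every group. All mice were C57BL/6J aged 2 months. Live cells were sorted either as total splenocytes or as YFP+ cells, and each library pooled cells of 2 to 3 mice. Cγ1Cre is driven from the immunoglobulin γ1 locus, which is transcribed once B cells are activated. YFP therefore marks cells with a history of Cre activity, and T cells and NK cells are not the cells that this Cre is made to reach.

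Th1 immunity is the arm of the response that is directed at pathogens inside cells. In T cells, interleukin-12 acts through a receptor that contains the chain encoded by Il12rb2, the transcription factor T-bet (Tbx21) is switched on, and T-bet in turn promotes the genes for interferon gamma (Ifng) and for the chemokine receptor CXCR3, which steers cells toward inflamed tissue. Interferon gamma acts back on its receptor, of which Ifngr1 encodes the ligand-binding chain. In B cells, T-bet and CXCR3 are known from cells that have met interferon gamma, from class switching to IgG2 and from age-associated B cells. Nkg7 encodes a protein of cytotoxic granules and Ccl5 encodes the chemokine RANTES, and both belong to the cytotoxic programme of NK cells and CD8 T cells.

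In the GENCODE vM21 annotation (GRCm38) the 7 genes are protein-coding. Tbx21 and Ccl5 lie on chromosome 11, Ifng and Ifngr1 on chromosome 10, Nkg7 on chromosome 7, Il12rb2 on chromosome 6 and Cxcr3 on chromosome X. The libraries count transcripts from their 3′ ends, and a count was read for the whole gene. The RefSeq promoter windows of GRCm38.p6, from 250 bases before the start of the gene to 50 after it, were searched on both strands for the T-box site AGGTGTGA, for its shorter core GGTGTGA, which every AGGTGTGA contains, and for the STAT motif TTCNNNGAA. Windows were matched by symbol for 6 of the 7 genes, all but Ccl5. The windows of the 4 genes on which the results turn most are printed 5′ to 3′ on the strand of the gene, with motif matches in capitals, to show what stands before the factor, its receptor target and a cytokine and granule gene. They lie at chr11:97115282-97115581 (minus strand) for Tbx21, chrX:101734098-101734397 (minus strand) for Cxcr3, chr10:118440796-118441095 (plus strand) for Ifng and chr7:43436888-43437187 (plus strand) for Nkg7.
Tbx21: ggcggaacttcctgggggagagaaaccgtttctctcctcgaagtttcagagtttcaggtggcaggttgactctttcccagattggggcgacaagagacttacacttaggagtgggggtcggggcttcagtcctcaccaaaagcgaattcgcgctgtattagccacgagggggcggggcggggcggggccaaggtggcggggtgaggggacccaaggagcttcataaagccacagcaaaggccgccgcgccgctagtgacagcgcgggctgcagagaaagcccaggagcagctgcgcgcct
Cxcr3: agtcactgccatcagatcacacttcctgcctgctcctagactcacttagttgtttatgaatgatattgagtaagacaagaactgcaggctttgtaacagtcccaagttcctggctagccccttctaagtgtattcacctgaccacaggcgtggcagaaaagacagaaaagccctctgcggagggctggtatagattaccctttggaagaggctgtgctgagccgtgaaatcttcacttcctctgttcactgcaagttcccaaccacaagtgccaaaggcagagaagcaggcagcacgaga
Ifng: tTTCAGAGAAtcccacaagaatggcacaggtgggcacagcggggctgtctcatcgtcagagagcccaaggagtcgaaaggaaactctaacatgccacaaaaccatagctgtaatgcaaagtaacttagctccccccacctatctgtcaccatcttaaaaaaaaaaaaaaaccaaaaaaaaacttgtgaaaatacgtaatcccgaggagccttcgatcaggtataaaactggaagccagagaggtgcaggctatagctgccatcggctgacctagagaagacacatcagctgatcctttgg
Nkg7: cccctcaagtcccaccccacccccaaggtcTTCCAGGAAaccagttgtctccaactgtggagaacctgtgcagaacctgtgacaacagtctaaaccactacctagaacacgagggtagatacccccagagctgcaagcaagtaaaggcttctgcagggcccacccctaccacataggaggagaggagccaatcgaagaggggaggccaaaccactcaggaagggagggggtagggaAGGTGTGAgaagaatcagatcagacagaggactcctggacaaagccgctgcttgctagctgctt

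AGGTGTGA stood in the Nkg7 window, with its first base at -14 from the start, and in no other of the 6 windows. It was found in 1.275% of 32851 promoter windows, and the core GGTGTGA in 3.979%. The STAT motif stood in the windows of Ifng (TTCAGAGAA at -249), Nkg7 (TTCCAGGAA at -220) and Il12rb2 (TTCTCAGAA at -123), and in 8.298% of all windows. The windows of Tbx21, Cxcr3 and Ifngr1 held none of these letters. A match describes letters in a short window and is not a measurement of binding.

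The libraries held between 71894780 and 105224903 unique molecular identifiers (UMIs, counted transcript molecules), and 83704 of 83967 barcodes were kept. Of 81903 distinct barcodes, 2041 occurred in 2 or more libraries. Cells were clustered and named from marker genes, so that every class name reads as "like". The B-like class held 5933 to 10494 cells in a library. In total libraries there were 1277 to 1916 CD4 T-like, 674 to 1147 CD8 T-like and 130 to 260 NK-like cells. The total and the YFP+ library of cKO batch 1 stood apart: Xist was at 524 and 638 CPM there and at no more than 0.348 CPM in the other 6 libraries, so the cKO mice of batch 1 included females. Cxcr3 is X-linked, so its calls by edgeR in comparisons of genotypes are also given without the cKO library of batch 1. The targeted gene, Eif3e, was at 227 to 289 CPM over all cells of a library and did not pass the test in any of the main classes. In YFP+ B-like cells its log2 fold change was -0.05 (SE 0.32, adjusted p = 0.982 by edgeR), and in YFP+ pre-GCB-like cells it fell by 0.76 (SE 0.18, adjusted p = 0.0266). Counts from the 3′ end need not cover the part of the gene that Cre removes, and whether they do was not tested. By immunoblot, the paper reports deletion of Eif3e in YFP+ B cells of older cKO mice.

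Levels are given as CPM, the UMIs of a gene per 1000000 UMIs in the sum over all cells of a class in 1 library, with batch 1 first and batch 2 second. Of the 4 main classes of total libraries, NK-like cells stood highest for 6 of the 7 genes in every library. Tbx21 was at 281 and 234 CPM in control and 249 and 164 CPM in cKO NK-like cells, and between 2.02 and 22.7 CPM in B-like, CD4 T-like and CD8 T-like cells. Although NK-like cells made up 1.23% to 2.35% of the cells of a total library, they held 24.6% to 40.7% of its Tbx21 UMIs. Ifng was at 86.5 and 201 CPM in control and 93.2 and 147 CPM in cKO NK-like cells, and Il12rb2 at 512 and 378 CPM in control and 591 and 293 CPM in cKO NK-like cells. The NK-like sum also held 743 to 1171 CPM of the 6 B markers, against 5752 to 7468 CPM of its own 7 markers.

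**Figure D1:**
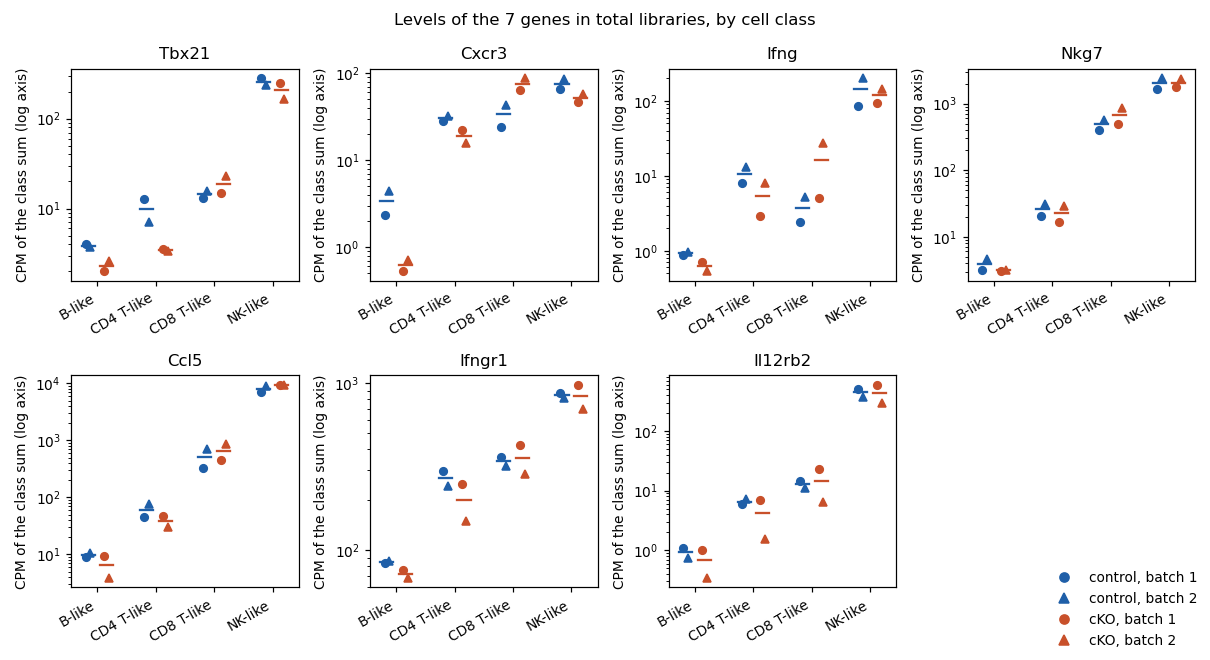
Levels of the 7 genes (CPM of the class sum, log axis) in B-like, CD4 T-like, CD8 T-like and NK-like cells of the 4 total libraries. Points are libraries (circles batch 1, triangles batch 2; blue control, orange cKO) and lines are means of 2. NK-like cells stood highest for every gene except Cxcr3, for which cKO CD8 T-like cells (64.1 and 87.4 CPM) lay above control CD8 T-like cells (23.8 and 43.1 CPM).

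Cxcr3 followed another order. In control total libraries NK-like cells were at 65.2 and 85.6 CPM, CD8 T-like cells at 23.8 and 43.1 CPM, CD4 T-like cells at 28.0 and 32.5 CPM and B-like cells at 2.35 and 4.42 CPM. The CD8 T-like and CD4 T-like values overlapped there. In cKO total libraries CD8 T-like cells, at 64.1 and 87.4 CPM, stood above NK-like cells, at 46.6 and 57.5 CPM. Among the smaller classes of total libraries, Cxcr3 reached 183 and 258 CPM in control and 228 and 270 CPM in cKO Zbtb16 T-like cells, a group with innate-like features, and 97.8 and 124 CPM in control and 75.3 and 83.8 CPM in cKO gamma delta T-like cells. These 2 classes overlapped with none of the main classes in Cxcr3 in the control libraries. Nkg7 fell from NK-like cells (1684 to 2414 CPM over the 4 libraries) to CD8 T-like (406 to 866 CPM), CD4 T-like (16.6 to 31.0 CPM) and B-like cells (3.07 to 4.58 CPM), with no overlap between neighbours. Ccl5 kept the same order without overlap, from 7099.8 to 9343 CPM in NK-like cells to 3.90 to 10.8 CPM in B-like cells.

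The first comparison asked whether the members differed between cKO and control B-like cells. Among YFP+ cells, Cxcr3 and Tbx21 were both far lower in cKO, and the receptor Ifngr1 lay lower with less margin. Of the 7 genes, 7 were tested and 2 passed, both downward, where 6.22% of the 15907 genes tested were called. The median log2 fold change of the 7 was -1.08, and -0.003 over all genes tested.

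**Figure D2:**
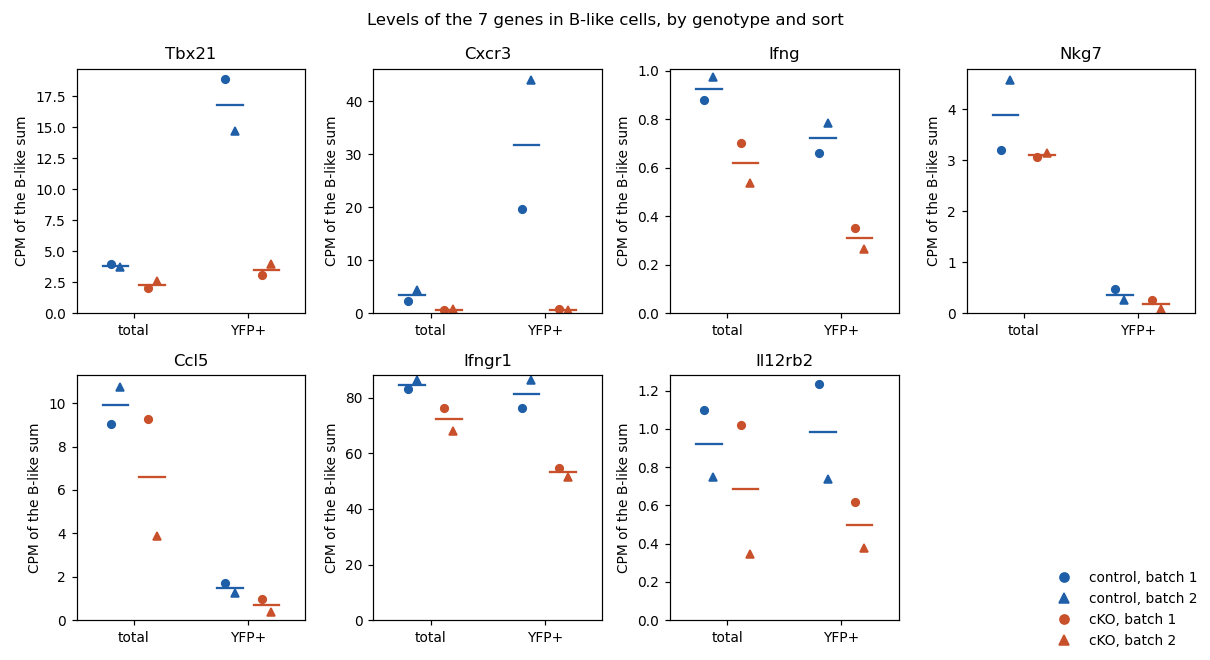
Levels of the 7 genes (CPM of the B-like sum, linear axes from 0) in total and YFP+ libraries. Points are libraries (circles batch 1, triangles batch 2; blue control, orange cKO) and lines are means of 2. Control YFP+ libraries stood apart for Tbx21 (18.9 and 14.7 CPM) and Cxcr3 (19.6 and 44.0 CPM), and total libraries stood above YFP+ libraries for Nkg7 and Ccl5.

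The mixture of subclasses among YFP+ B-like cells stood apart by genotype. Naive B-like cells were 9.97% and 5.49% of control and 62.8% and 72.1% of cKO YFP+ B-like cells, B1-like cells 35.3% and 29.8% against 6.50% and 4.68%, and GCB-like cells 21.3% and 32.3% against 3.73% and 2.01%. Pre-GCB-like cells were 3.70% and 2.73% of control and 16.2% and 15.6% of cKO cells. The part of this make-up in the class values was not tested.

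Tbx21, which encodes T-bet, was at 18.9 and 14.7 CPM in control YFP+ B-like cells and at 3.05 and 3.94 CPM in cKO YFP+ B-like cells. Both control libraries lay above both cKO libraries, and the log2 fold change was -2.19 (SE 0.27, adjusted p = 0.00643, edgeR). Cxcr3 was at 19.6 and 44.0 CPM in control and at 0.875 and 0.529 CPM in cKO YFP+ B-like cells. The control libraries differed from each other by more than Tbx21 did, yet the lowest of them held 1303 UMIs of Cxcr3 and the cKO libraries 72 and 52, and the log2 fold change was -5.52 (SE 0.53, adjusted p = 0.00317). Without the cKO library of batch 1 the log2 fold change of Cxcr3 was -5.81 and that of Tbx21 -1.93, and both passed. Ifngr1, the receptor chain, was at 76.4 and 86.2 CPM in control and 54.9 and 51.5 CPM in cKO, with no overlap and a log2 fold change of -0.58 (SE 0.26, adjusted p = 0.309). With the batch as a block, Ifngr1 (adjusted p = 0.0380) and Ccl5 (adjusted p = 0.0386) passed too, where 18.7% of all genes were called. Ifng and Il12rb2 stayed at or under 1.23 CPM in every B-like sum, with log2 fold changes of -1.20 (adjusted p = 0.176) and -0.92 (adjusted p = 0.307) in YFP+ cells.

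Among B-like cells of total libraries the same genes stood lower in level. Cxcr3 was at 2.35 and 4.42 CPM in control and 0.532 and 0.711 CPM in cKO, with a log2 fold change of -2.38 (SE 0.43, adjusted p = 0.126). Tbx21 was at 3.98 and 3.72 CPM in control and 2.02 and 2.59 CPM in cKO (log2 fold change -0.67, SE 0.26, adjusted p = 0.544). For both genes the 2 groups did not overlap, nor did they for Ifng, Nkg7 and Ifngr1, each lower in cKO. The share of all genes without overlap was not counted. In this comparison edgeR called none of the 7 genes and 0.0819% of all genes. At an unadjusted p under 0.05 there were 2 of the 7, and DESeq2 called 1, Cxcr3 (adjusted p = 0.00014), among 2.36% of genes. Cxcr3 also passed with the batch as a block (adjusted p = 0.00244, among 14% of genes) and when any 1 of the 4 libraries was left out, with -2.14 without the cKO library of batch 1.

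The B-like class is a mixture, so the members were also read within its subclasses. In YFP+ libraries Tbx21 and Cxcr3 were highest in control B1-like and pre-GCB-like cells, and Cxcr3 also in plasma cell-like cells. Pre-GCB-like cells, which carry markers of activation before the germinal centre, held Tbx21 at 21.2 and 30.03 CPM in control and at 2.81 and 2.47 CPM in cKO. That difference was -3.17 on the log2 scale (SE 0.26, adjusted p = 2.54e-04). Cxcr3 was at 30.4 and 55.7 CPM in control and 0.305 and 0.5002 CPM in cKO pre-GCB-like cells, a log2 fold change of -6.57 (SE 0.41, adjusted p = 1.27e-04). The cKO values rest on 9 and 18 UMIs in sums of many cells, and the control values on 116 and 139 UMIs. Ifngr1 fell by 0.92 on the log2 scale there (SE 0.21, adjusted p = 0.0235), from 63.1 and 86.5 to 37.2 and 36.7 CPM, and leaving out either cKO library or the control library of batch 2 took its adjusted p to between 0.0518 and 0.0539, and a clustering resolution of 1.5 to 0.149. The log2 fold change of Cxcr3 was -6.24 without the cKO library of batch 1 and passed. In this comparison 3 of the 5 members tested were called, among 11.5% of all genes. A pair of clusters made up the subclass, cluster 9 (led by Fabp5, Tmem176b and Socs2) with 30.4% of control and 57.2% of cKO YFP+ pre-GCB-like cells, and cluster 7 (led by Ccnd2, Mreg and Bcl2a1d) with the rest. Within cluster 9 Cxcr3 was at 46.0 and 94.1 CPM in control against 0.384 and 0.461 CPM in cKO, and Tbx21 at 26.6 and 46.3 against 2.43 and 2.24 CPM. Cluster 7, with 69.6% of the control cells, held Cxcr3 at 4.84 and 6.40 CPM in control against 0 and 0.714 CPM in cKO, and Tbx21 at 12.4 and 9.14 against 4.28 and 3.75 CPM. In both clusters the control libraries lay above the cKO libraries for both genes, with the control levels lower in cluster 7 than in cluster 9.

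**Figure D3:**
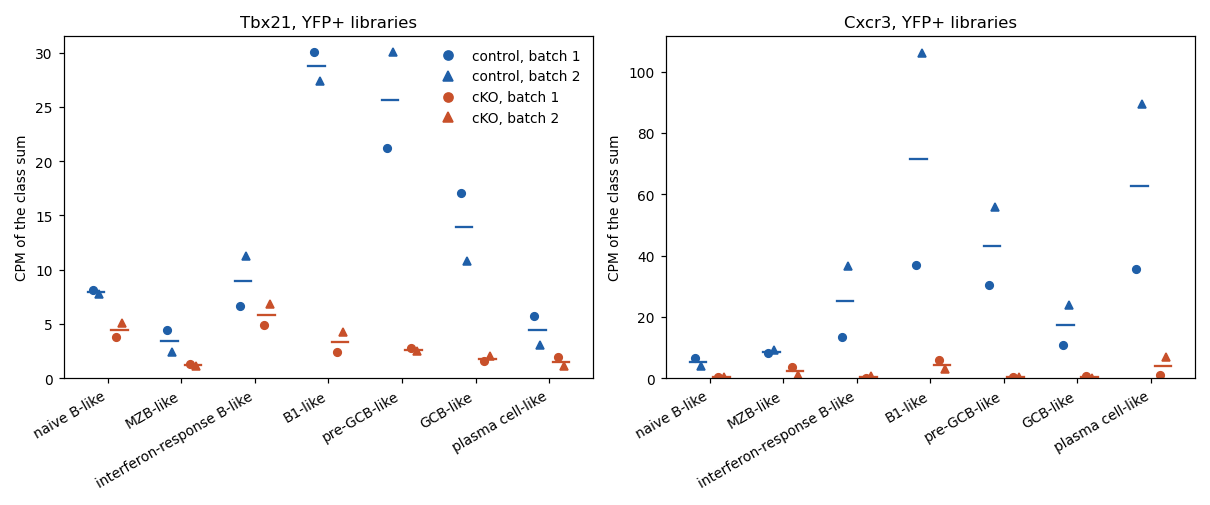
Levels of Tbx21 (left) and Cxcr3 (right) in 7 B-lineage subclasses of the YFP+ libraries (CPM of the class sum, linear axes from 0). Points are libraries (circles batch 1, triangles batch 2; blue control, orange cKO) and lines are means of 2. Control B1-like cells reached 106 CPM and control plasma cell-like cells 89.4 CPM of Cxcr3, and no cKO library exceeded 7.003 CPM.

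GCB-like cells, the germinal centre B cells, showed the same direction in both sorts. In YFP+ libraries Tbx21 was at 17.0 and 10.8 CPM in control and 1.57 and 2.02 CPM in cKO (log2 fold change -2.93, SE 0.36, adjusted p = 0.00655). Cxcr3 was at 10.8 and 23.7 CPM in control and at 0.626 and 0 CPM in cKO, from 4 and 0 UMIs (log2 fold change -5.49, SE 0.75, adjusted p = 0.00996). Both lost their call when the plain UMI total replaced the TMM scaling, with adjusted p of 0.0646 and 0.0700. Without the cKO library of batch 1, the cKO cells left held no UMI of Cxcr3, and the gene passed. Of 4 members tested these 2 were called, among 1.19% of all genes. In total libraries Tbx21 was at 16.7 and 18.7 CPM in control and 2.11 and 0.583 CPM in cKO GCB-like cells (log2 fold change -3.73, SE 0.53, adjusted p = 0.00269), and Cxcr3 at 10.9 and 15.9 against 1.06 and 0.778 CPM (log2 fold change -3.78, SE 0.56, adjusted p = 0.00297). Those 2 of 5 tested stood among 1.76% of all genes called. Without the cKO library of batch 1 the log2 fold change of Cxcr3 was -3.96 and passed, and in a model of all 8 libraries its adjusted p was 0.0657. Ccl5 passed in addition with the batch as a block (adjusted p = 0.0226, among 4.7% of genes).

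B1-like cells were named from markers of B1 cells, a self-renewing lineage of innate-like B cells. The subclass joined clusters with unlike leading genes, given below, and whether each cluster holds B1 cells was not tested. It held Tbx21 at 30.1 and 27.4 CPM in control and 2.42 and 4.22 CPM in cKO YFP+ libraries (log2 fold change -3.08, SE 0.33, adjusted p = 0.0122). Cxcr3 was at 37.0 and 106 CPM in control and 5.97 and 2.88 CPM in cKO (log2 fold change -3.99, SE 0.59, adjusted p = 0.0279). Scaled by the plain UMI total, neither passed (adjusted p = 0.0559 and 0.0791). With the batch as a block the call of Cxcr3 was lost (log2 fold change -3.75, adjusted p = 0.250), while Ccl5, Ifngr1 and Il12rb2 passed, among 13.8% of genes. DESeq2 called Tbx21, Cxcr3 and Ifngr1, among 2.62% of genes. Leaving out 1 library at a time, the log2 fold change of Cxcr3 ran from -4.58 (without the cKO or the control library of batch 1) to -2.92 (without the control library of batch 2), and it passed each time. Il12rb2 was at 2.08 and 2.04 CPM in control, from 45 UMIs in each library, and held 1 UMI in each cKO library, a ratio of cKO to control of 0.0853 with a counting interval of 0.0102 to 0.317. Ifngr1 was at 89.3 and 123 CPM in control and 49.7 and 48.7 CPM in cKO, with no overlap (adjusted p = 0.172, and 4.47e-08 with the block). In total libraries Cxcr3 fell from 14.4 and 27.6 to 0.961 and 1.95 CPM in B1-like cells (log2 fold change -3.72, SE 0.53, adjusted p = 0.00946, and -3.32 without the cKO library of batch 1, which passed). That call was lost in a model of all 8 libraries (adjusted p = 0.499) and at a clustering resolution of 0.5 (0.0603). Tbx21 was at 18.9 and 11.2 CPM against 0.961 and 3.89 CPM (log2 fold change -2.47, adjusted p = 0.0975, and 0.00607 with the block, among 4.09% of genes). In YFP+ libraries 2 of 6 members tested were called among 1.05% of genes, and in total libraries 1 of 5 among 0.196%.

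Clusters of B1-like cells differed in these genes and in their share by genotype. Cluster 12 (led by Dnm3, Adgre1 and Fcer1g) held Tbx21 at 58.0 and 47.1 CPM and Cxcr3 at 55.2 and 165 CPM in control YFP+ libraries, and it made up 31.0% of control and 7.23% of cKO YFP+ B1-like cells. In its cKO cells, 48 and 31 in number, Tbx21 was at 13.2 and 35.9 CPM, from 7 and 12 UMIs, and Cxcr3 at 39.6 and 26.9 CPM. Cluster 6 (led by 1810046K07Rik, Pstpip2 and Ctla4) made up 29.4% of control and 65.0% of cKO YFP+ B1-like cells and held Tbx21 at 3.04 and 2.29 CPM in control and 1.59 and 2.97 CPM in cKO, which overlapped. Its Cxcr3 was at 3.04 and 6.19 CPM in control and 1.59 and 0 CPM in cKO.

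Cluster 10 (led by S100a6, Parm1 and Myo1f) accounted for 33.4% of the control and 10.7% of the cKO subclass in YFP+ libraries. It held Tbx21 at 12.4 and 11.99 CPM in control and 0 and 3.32 CPM in cKO, and Cxcr3 at 31.99 and 57.7 against 3.44 and 8.30 CPM. Cluster 15 (led by Ube2c, Lockd and Cenpf, genes of dividing cells) accounted for 6.13% and 17.03%. It held Tbx21 at 16.5 and 38.3 CPM in control and 1.52 and 0 CPM in cKO, and Cxcr3 at 69.7 and 170.1 against 6.09 and 0.633 CPM. Both genes were thus lower in cKO without overlap within clusters 10 and 15. The cKO values there came from 117 cells of cluster 10 and 186 of cluster 15 over both YFP+ libraries, and some were 0. The make-up of the subclass moved with the genotype as well. The part of each in its levels was not tested.

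The remaining B-lineage subclasses gave fewer calls. In YFP+ naive B-like cells Cxcr3 was at 6.62 and 3.88 CPM in control and 0.397 and 0.341 CPM in cKO (log2 fold change -3.66, SE 0.56, adjusted p = 0.00790), and it was the 1 member called of 4 tested, among 1.34% of genes. Its adjusted p was 0.0727 without the control library of batch 1 and 0.103 in a model of all 8 libraries. Its log2 fold change was -3.75 without the cKO library of batch 1 and passed. Tbx21 was at 8.12 and 7.77 CPM in control and 3.77 and 5.09 CPM in cKO naive B-like cells (adjusted p = 0.515). Different clusters held most of this subclass: cluster 3 (led by Maml3, Pgap1 and Gm15675) held 89.4% of control cells, and clusters 0 (led by Lifr and Rflnb) and 1 (led by Scn3a, Klhdc2 and St7) held 44.3% and 55.0% of cKO cells. Ifngr1 was at 105 and 108 CPM in control and 70.4 and 61.7 CPM in cKO (adjusted p = 0.436, and 0.00655 with the block, among 18.3% of genes). In YFP+ interferon-response B-like cells Cxcr3 held 8 and 13 UMIs in control and 0 and 1 in cKO, a ratio of 0.0160 with a counting interval of 3.87e-04 to 0.0995, and it was 1 of 2 members tested and among 1.3% of genes called. That call was lost without the cKO library of batch 1 (adjusted p = 0.100) or of batch 2 (0.192), and without either control library the gene did not enter the test. Outside the B lineage, YFP+ monocyte or macrophage-like cells held 21 UMIs of Cxcr3 in control and 2 in cKO. That ratio was 0.0450, with a counting interval of 0.00511 to 0.184. The part of RNA from other cells in the low Cxcr3 values of the naive B-like and interferon-response B-like subclasses was not tested. In YFP+ plasma cell-like cells Cxcr3 was at 35.6 and 89.4 CPM in control and 1.16 and 7.003 CPM in cKO (log2 fold change -3.91, SE 1.10, adjusted p = 0.452). None of 4 members tested was called there by edgeR or DESeq2, with 2 at an unadjusted p under 0.05 and 1.44% of genes called, and Cxcr3 passed with the block (adjusted p = 1.10e-05, among 3.54% of genes) and without the cKO library of batch 1 (1.11e-05) or of batch 2 (9.68e-12), but not without either control library (0.313 and 0.215). MZB-like cells of YFP+ libraries held Cxcr3 at 8.05 and 9.26 CPM in control and 3.52 and 1.15 CPM in cKO (adjusted p = 0.573, and 0.0424 with the block, among 3.6% of genes).

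In total libraries the other B-lineage subclasses gave no call of a member. edgeR called 0 members and 0.247% of genes in naive B-like cells (2 members at an unadjusted p under 0.05), 0.407% in pre-GCB-like (2), 0.0355% in MZB-like (1), 0% in transitional B-like (0), 0.158% in interferon-response B-like (1) and 0.116% in plasma cell-like cells (1), and DESeq2 called 0 members in each. Over all genes of transitional B-like cells, 200 of 10630 had an unadjusted p under 0.05 and DESeq2 called 8. MZB-like cells of YFP+ libraries gave 0 of 3 members and 0.211% of genes, with 1 member at an unadjusted p under 0.05 and 0 by DESeq2. With the batch as a block, members passed in 4 of these 6 comparisons of total libraries: Ccl5 in naive B-like (adjusted p = 0.0473, among 20.9% of genes) and interferon-response B-like cells (0.0120, among 5.13%), Tbx21 (0.0111) and Cxcr3 (0.00197) in pre-GCB-like cells (among 7.05%), and Cxcr3 in plasma cell-like cells (0.00117, among 2.98%), each lower in cKO. Tbx21 in naive B-like cells of total libraries was at 1.98 and 2.40 CPM in control and at 2.84 and 3.02 CPM in cKO. Those groups did not overlap, and the log2 fold change of 0.55 (SE 0.33, adjusted p = 0.828, and 0.194 with the block) was not called. It was above 0 in 15 of 15 alternatives, from 0.20 to 0.72. The genotypes filled different clusters here: cluster 3 held 98.6% of control and 7.997% of cKO naive B-like cells of total libraries. Clusters 0 and 1 held 62.1% and 29.9% of the cKO cells. Within cluster 3 Tbx21 was at 1.83 and 2.43 CPM in control and 2.33 and 2.07 CPM in cKO, which overlapped. Each of these cKO values came from 4 UMIs. The part of this make-up in the subclass values was not tested.

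The second comparison set YFP+ against total B-like cells of the same genotype. In control mice, Tbx21 and Cxcr3 rose in YFP+ cells and the cytotoxic genes Nkg7 and Ccl5 fell. Tbx21 rose by 2.23 on the log2 scale (SE 0.23, adjusted p = 0.00562) and Cxcr3 by 3.39 (SE 0.55, adjusted p = 0.0143), from the levels given above. Nkg7 fell from 3.20 and 4.58 to 0.467 and 0.261 CPM (log2 fold change -3.33, SE 0.39, adjusted p = 0.00617, and 0.0806 with cells classed by marker UMIs), and Ccl5 from 9.04 and 10.8 to 1.72 and 1.24 CPM (log2 fold change -2.65, SE 0.27, adjusted p = 0.00570). These 4 of 7 stood among 6.43% of genes called. The summed level of the 6 T markers in the same B-like cells fell with them, from 24.2 and 38.7 CPM to 7.56 and 5.80 CPM, and that of the 7 NK markers from 4.25 and 5.71 CPM to 1.11 and 0.546 CPM, with all 6 and all 7 markers above 0 in each of these libraries. Their part in the fall of Nkg7 and Ccl5 was not tested. The mixture of subclasses also differed between the sorts. In control total libraries naive B-like cells were 35.1% and 32.8% of B-like cells. B1-like cells were 6.30% and 6.14% there, and GCB-like cells 1.03% and 0.631%. The shares in YFP+ libraries are given above, and the sorts were not compared within subclasses of either genotype.

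In cKO mice neither Tbx21 nor Cxcr3 passed the test. Tbx21 was at 2.02 and 2.59 CPM in total and 3.05 and 3.94 CPM in YFP+ cKO B-like cells (log2 fold change 0.69, SE 0.30, adjusted p = 0.297, and 0.00110 with the block, which called 50% of genes), and Cxcr3 at 0.532 and 0.711 against 0.875 and 0.529 CPM (log2 fold change 0.23, adjusted p = 0.776). Nkg7 fell by 4.12 (SE 0.45, adjusted p = 0.0352), from 3.07 and 3.15 to 0.255 and 0.0916 CPM, and was the 1 member called among 1.46% of genes. RLE scaling (adjusted p = 0.0507) and plain UMI totals (0.0981) ended that call, and DESeq2 called 2 members, among 6.11% of genes. Ccl5 fell by 3.20 with an adjusted p of 0.0601, which the block took to 5.53e-10, and the block also called Ifng (0.0235) and Ifngr1 (1.75e-04). In all the block called 5 of the 7 members, against that share of 50% over all genes. T markers moved from 26.7 and 33.3 CPM to 6.38 and 4.70 CPM in these cells, and NK markers from 4.32 and 2.23 to 0.510 and 0.265 CPM. The difference of the genotype effect between the sorts was tested directly. It was -1.53 for Tbx21 (SE 0.36, adjusted p = 0.111) and -3.14 for Cxcr3 (SE 0.81, adjusted p = 0.146) on the log2 scale. edgeR called none of the 7 members and 1.13% of genes, with 2 members at an unadjusted p under 0.05. DESeq2 called both Tbx21 (adjusted p = 0.00909) and Cxcr3 (adjusted p = 8.74e-04), among 4.02% of genes. With genotype and batch as a block both passed (0.00159 and 0.00203), as did Ifngr1 (0.0482), among 15.8% of genes.

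Other genes of the pathway in YFP+ B-like cells moved in both directions. Of the 7 receptor genes tested, 2 rose. Il18r1, a chain of the interleukin-18 receptor, was at 1.07 and 1.13 CPM in control and 8.22 and 4.08 CPM in cKO (log2 fold change 2.50, SE 0.37, adjusted p = 0.0112). Hlx, a homeobox factor that acts with T-bet in Th1 cells, was the 1 of 4 partner factors called, at 0.271 and 0.166 CPM in control and 1.48 and 2.27 CPM in cKO (log2 fold change 3.19, SE 0.46, adjusted p = 0.0104). Cxcl9, a ligand of CXCR3, fell by 3.48 (SE 0.62, adjusted p = 0.0194), from 0.422 and 0.618 to 0.0608 and 0.0305 CPM. Of the 15 interferon gamma response genes 1 was called: Socs1, a feedback inhibitor of JAK signalling, rose by 2.11 (SE 0.45, adjusted p = 0.0338). The median log2 fold change of those 15 was -0.32, and 5 of them lay above 0. None of the 5 cytokine genes, the 5 kinase and STAT genes or the 6 cytotoxic genes tested was called by edgeR, with 1, 0 and 2 of them at an unadjusted p under 0.05 and 0, 0 and 1 called by DESeq2. Over the 7 lists edgeR called 4 of 44 genes higher and 1 lower, and 12 in either direction with the block. Over all genes tested these shares were 6.22% and 18.7%. The fifth gene called, Il27ra, is named beyond the rule for named genes after its values were seen. In total B-like cells none of the 46 pathway genes tested was called by edgeR, with 12 at an unadjusted p under 0.05, 3 called by DESeq2 and 9 with the block, where 0.0819% and 14% of all genes were called by edgeR without and with the block.

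Pre-GCB-like cells of YFP+ libraries showed more calls among the same lists. Il27, a cytokine subunit gene, rose by 3.49 (SE 0.48, adjusted p = 0.00255), from 4.45 and 0.400 CPM in control to 24.5 and 33.5 CPM in cKO. Il18r1 rose by 4.31 (SE 0.64, adjusted p = 0.00347) and Socs1 by 1.87 (SE 0.28, adjusted p = 0.00362). Nlrc5, a transactivator of MHC class I genes, fell by 1.39 (SE 0.21, adjusted p = 0.00380), from 104 and 74.9 to 37.1 and 27.2 CPM. Of 5 kinase and STAT genes tested 3 fell, of 15 interferon gamma response genes 2 rose and 4 fell, and the 1 CXCR3 ligand tested, Cxcl10, had a log2 fold change of -2.29 (adjusted p = 0.0466). Neither the batch block (adjusted p = 0.0595) nor DESeq2 (0.0606) called Cxcl10. DESeq2 called 2 of the kinase and STAT genes and 7 of the response genes, among 10.6% of all genes. Over the 7 lists edgeR called 5 of 38 genes tested higher and 9 lower, where 11.5% of all genes were called. The median log2 fold change was -0.85 over the kinase and STAT genes and -0.75 over the response genes.

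Between sorts, 1 of 46 pathway genes tested rose and 6 fell in control YFP+ against total B-like cells, where 6.43% of all genes were called. With the block 31 were called, and 42.7% of all genes. Those with the smallest p were Gzma (log2 fold change -3.47, adjusted p = 0.00570) and Gzmb (-3.89, adjusted p = 0.0229), which encode granzymes, Il18 (-1.74, adjusted p = 0.0102), a cytokine gene, and Hlx (-2.54, adjusted p = 0.0134). In cKO mice Cxcl10, a ligand of CXCR3, rose by 2.88 (adjusted p = 0.0317), Il18r1 rose by 2.20 (adjusted p = 0.0483) and Gzma fell by 5.28 (adjusted p = 0.0363), among 45 tested and 1.46% of all genes called, and with the block 33 were called and 50% of all genes. The T and NK marker sums given above moved with the granzyme genes, and their part was not tested.

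The third comparison asked how the members stood in T cells and NK cells, which lie outside the cells that Cγ1Cre is made to reach. In total CD4 T-like cells all 7 genes had a negative log2 fold change and none passed the test, where 3.34% of genes were called, 378 of 403 upward. Tbx21 was nearest: it stood at 12.9 and 7.004 CPM in control and 3.58 and 3.33 CPM in cKO, with no overlap and a log2 fold change of -1.64 (SE 0.35, adjusted p = 0.0596). Cxcr3 was at 28.0 and 32.5 CPM in control and 22.2 and 15.8 CPM in cKO (log2 fold change -0.79, SE 0.25, adjusted p = 0.178), also without overlap, and -1.05 without the cKO library of batch 1 (adjusted p = 0.0691). Ifng was at 7.93 and 13.2 CPM in control and 2.90 and 8.01 CPM in cKO, which overlapped (log2 fold change -1.03, SE 0.49, adjusted p = 0.403). At an unadjusted p under 0.05 there were 2 of the 7, and DESeq2 called Tbx21, among 4.91% of genes. The batch block, which called 27.7% of genes, let 4 pass, all lower in cKO: Tbx21 (adjusted p = 2.35e-04), Ifng (0.00176), Ifngr1 (0.00372) and Cxcr3 (0.00754). Leaving out 1 library gave 1 or 2 calls each time, among 3.84% to 9.41% of genes.

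**Figure D4:**
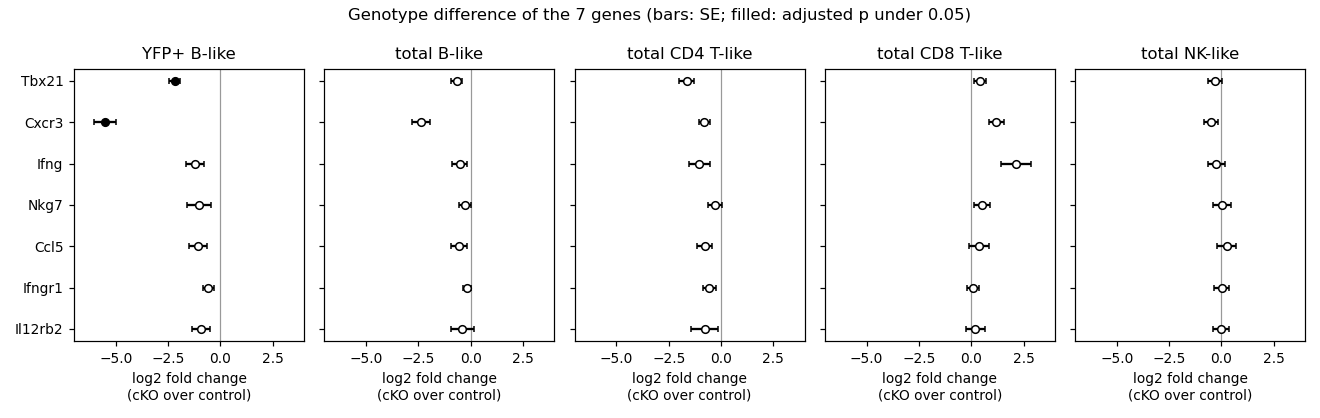
Log2 fold change of cKO over control for the 7 genes in 5 comparisons, with bars of 1 SE. Filled points passed an adjusted p under 0.05 and open points did not. Tbx21 (-2.19) and Cxcr3 (-5.52) in YFP+ B-like cells were the filled points, and Cxcr3 lay below 0 in total B-like (-2.38), CD4 T-like (-0.79) and NK-like cells (-0.51) and above 0 in total CD8 T-like cells (1.20).

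The make-up of the CD4 T-like class moved with genotype. Tfh-like cells, the helpers of the germinal centre, were 3.11% and 1.49% of control and 26.9% and 34.6% of cKO CD4 T-like cells, and naive-like cells 74.0% and 73.0% against 41.9% and 30.5%. Effector-memory CD4 T-like cells, which held the highest Tbx21 level of the tested CD4 subclasses, were 9.86% and 12.5% of control and 7.57% and 7.15% of cKO CD4 T-like cells. Treg-like cells were 10.5% and 10.3% of control and 3.79% and 1.93% of cKO cells, and CD4 T-like cells that took no subclass name 2.50% and 2.74% against 19.9% and 25.8%. Within effector-memory cells Tbx21 was at 76.1 and 38.2 CPM in control and 33.5 and 25.7 CPM in cKO (log2 fold change -0.92, SE 0.38, adjusted p = 1), and Cxcr3 at 162 and 196 against 164 and 72.0 CPM, which overlapped. Ifng was at 48.6 and 79.9 CPM in control and 19.8 and 38.1 CPM in cKO effector-memory cells (log2 fold change -1.04, adjusted p = 1, and 0.0140 with the block, among 2.05% of genes). None of 6 members tested was called there by edgeR or DESeq2, with 2 at an unadjusted p under 0.05 and 0.176% of genes called. Tfh-like cells were not tested, since 1 control library held 19 of them. In cKO Tfh-like cells Tbx21 was at 1.95 and 2.65 CPM and Cxcr3 at 13.6 and 5.12 CPM, and in the 41 control cells of batch 1 they were at 94.6 and 117 CPM. That control Tbx21 level lay above those of effector-memory cells. Whether the control cells under this name are Tfh cells was not tested.

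Cxcr3 stood higher in cKO than in control naive CD4 T-like cells, the reverse of the whole class. It was at 0.292 and 0.731 CPM in control, from 2 and 4 UMIs, and at 8.82 and 25.9 CPM in cKO, from 33 and 109 UMIs (log2 fold change 5.16, SE 0.73, adjusted p = 0.0626). Cluster 4 (led by Efna5, Tspan9 and Ifngas1) held 59.9% of cKO and 0.105% of control naive CD4 T-like cells in total libraries, and its Cxcr3 was at 17.1 and 29.2 CPM in cKO. Clusters 0 and 2, which both genotypes filled, held 0 to 1.63 CPM in control and 0 to 13.2 CPM in cKO. None of the 5 members tested was called by edgeR, with 2 at an unadjusted p under 0.05 and 0.106% of genes called. Of 34 other pathway genes tested edgeR called 1, Eomes, a T-box factor related to T-bet. It was higher in cKO by 5.15 on the log2 scale (adjusted p = 0.0438). Whether the cKO cells under this name are naive was not tested. Cxcr3 passed with DESeq2 (adjusted p = 5.32e-07, among 0.426% of genes) and with the block (3.21e-24, among 8.72%), and Nkg7 passed with the block (8.41e-09). Leaving out 1 library at a time, the log2 fold change of Cxcr3 ran from 4.11 to 5.90. In Treg-like cells Cxcr3 was at 39.9 and 44.9 CPM in control and 12.6 and 0 CPM in cKO, from 4 and 0 UMIs (adjusted p = 0.999, and 0.0451 with the block, among 0.306% of genes). edgeR and DESeq2 called none of the 5 members and 0% of genes there, with 2 members and 132 of 6539 genes at an unadjusted p under 0.05. YFP+ CD4 T-like cells, 22 to 198 in a library, allowed a test of Cxcr3 and Ifngr1 alone, and edgeR called neither, with none at an unadjusted p under 0.05 and 1.08% of genes called. DESeq2 did not call Ifngr1 there and gave no adjusted p for Cxcr3.

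In total CD8 T-like cells all 7 genes had a positive log2 fold change. Cxcr3 was at 23.8 and 43.1 CPM in control and 64.1 and 87.4 CPM in cKO, with no overlap (log2 fold change 1.20, SE 0.35, adjusted p = 0.374). Ifng was at 2.38 and 5.17 CPM in control and 5.02 and 27.3 CPM in cKO (log2 fold change 2.15, SE 0.72, adjusted p = 0.564). The groups overlapped for Ifng. edgeR and DESeq2 called none of the 7 members, with 2 at an unadjusted p under 0.05 and 0.235% of genes called. The batch block, which called 7.09% of genes, let 4 pass here, all higher in cKO: Cxcr3 (adjusted p = 1.03e-04), Ifng (0.00175), Nkg7 (0.00956) and Ccl5 (0.0136). The values of Cxcr3 and Ifng moved with single libraries. Ifng passed without the cKO library of batch 1 (log2 fold change 2.90, adjusted p = 1.08e-10), while without that of batch 2 its log2 fold change was 0.38. Cxcr3 passed without the cKO library of batch 1 (1.43, adjusted p = 0.0208) or the control library of batch 2 (1.75, adjusted p = 0.00297), and did not without the cKO library of batch 2 (0.90) or the control library of batch 1 (0.78). The NK markers summed to 6.65 and 10.7 CPM in control and 27.2 and 68.4 CPM in cKO CD8 T-like cells, with all 7 above 0, and their part in these values was not tested.

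A cluster of CD8 T-like cells that took no subclass name (led by Tmem213, Mboat2 and Sult5a1) held 93 of the 674 cells in cKO batch 2, 2 cells in cKO batch 1 and none in control total libraries. It carried 43.1% of the Ifng UMIs of its class in that library. Without it Ifng was at 19.1 CPM and Cxcr3 at 89.6 CPM there, both still above the control libraries.

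**Figure D5:**
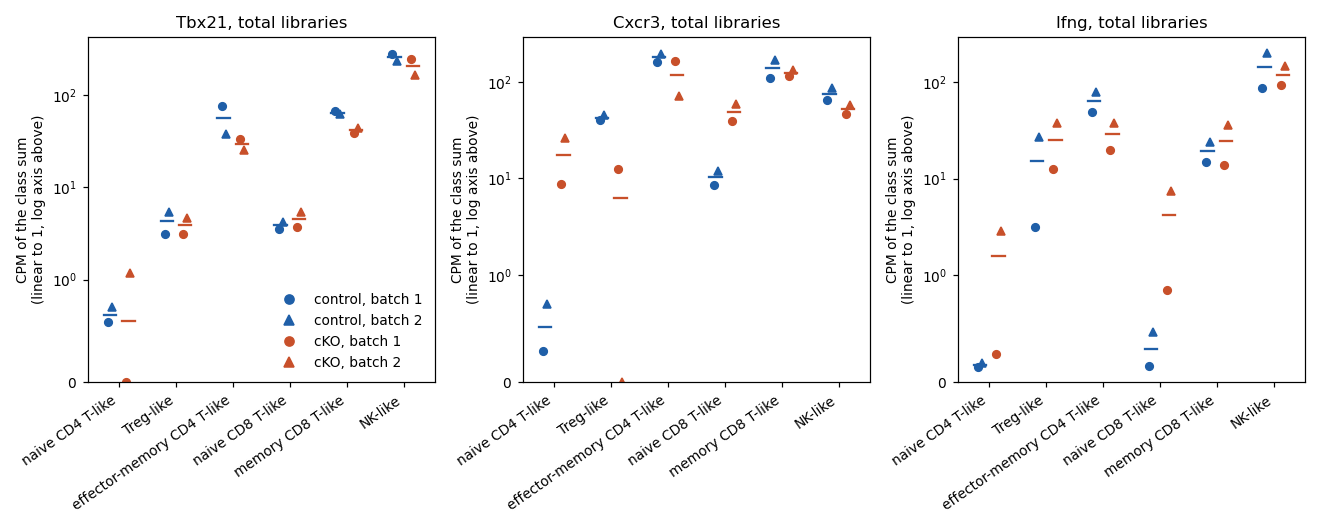
Levels of Tbx21, Cxcr3 and Ifng (CPM of the class sum, linear from 0 to 1 and on a log axis above) in 6 T cell and NK cell subclasses of the total libraries. Points are libraries (circles batch 1, triangles batch 2; blue control, orange cKO) and lines are means of 2. Cxcr3 in naive CD8 T-like cells was at 8.57 and 11.96 CPM in control and 39.7 and 58.7 CPM in cKO, while in memory CD8 T-like cells the genotypes overlapped.

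Among the CD8 subclasses Cxcr3 passed the test in naive CD8 T-like cells. It rose from 8.57 and 11.96 CPM in control to 39.7 and 58.7 CPM in cKO (log2 fold change 2.32, SE 0.32, adjusted p = 0.0168), and was the 1 of 6 members called, among 0.153% of genes. Without the cKO library of batch 1 the log2 fold change was 2.62. The call depended on the clustering: at a resolution of 0.5 the log2 fold change was 0.59 (adjusted p = 0.999) and at 1.5 it was 1.01 (adjusted p = 1). Cluster 1 (led by Xist, 1700016L21Rik and Ncoa7) held 63.6% of cKO and 0.712% of control naive CD8 T-like cells in total libraries, with Cxcr3 at 54.8 and 72.3 CPM in cKO. In cluster 0 Cxcr3 was at 8.53 and 12.9 CPM in control and 10.5 and 22.7 CPM in cKO, which overlapped. In cluster 2 it was at 11.8 and 15.1 against 16.1 and 41.4 CPM and in cluster 3 at 2.33 and 4.04 against 14.1 and 19.7 CPM, neither of which overlapped. Of 36 other pathway genes tested in naive CD8 T-like cells edgeR called 2, both higher in cKO, among 0.153% of all genes. They were Eomes (log2 fold change 2.69, adjusted p = 0.00558) and Gzma (4.39, adjusted p = 0.0273). Whether the cKO cells under this name are naive was not tested. Ccl5 was at 43.9 and 59.3 CPM in control and 15.4 and 27.0 CPM in cKO naive CD8 T-like cells (log2 fold change -1.23, SE 0.33, adjusted p = 0.399, and 1.19e-12 with the block, among 7.31% of genes). In memory CD8 T-like cells Cxcr3 was at 109.9 and 169 CPM in control and 116 and 134 CPM in cKO, and Tbx21 at 66.6 and 62.2 against 38.6 and 44.4 CPM without overlap (log2 fold change -0.67, SE 0.29, adjusted p = 0.985). edgeR and DESeq2 called none of the 7 members there, with 1 at an unadjusted p under 0.05 and 0.386% of genes called, and Ccl5 passed with the block (0.0165, lower in cKO, among 2.47% of genes). Different clusters held most of this subclass: cluster 5 (led by Cd163l1, Gas7 and Ly6c2) held 79.1% of control and 7.07% of cKO memory CD8 T-like cells of total libraries, and cluster 4 (led by Klra8, Ctla2a and Gzmm) 1.31% and 67.3%. Memory-like cells were 12.3% and 16.1% of control and 28.2% and 32.5% of cKO CD8 T-like cells.

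In NK-like cells none of the 7 members was called by edgeR or DESeq2, none had an unadjusted p under 0.05, and 0.0451% of genes were called. The log2 fold changes ran from -0.51 (Cxcr3, SE 0.34) to 0.24 (Ccl5, SE 0.45), and that of Cxcr3 was -0.31 without the cKO library of batch 1. Cxcr3 was at 65.2 and 85.6 CPM in control and 46.6 and 57.5 CPM in cKO, without overlap, and Tbx21 at 281 and 234 against 249 and 164 CPM, which overlapped. NK-like cells of YFP+ libraries, 0 to 39 in number, were too few to test.

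Among the other pathway genes of the T cell classes, 3 of 4 partner factors tested rose in total CD4 T-like cells: Zeb2 by 2.63 (SE 0.27, adjusted p = 0.00905), Eomes by 3.36 (SE 0.42, adjusted p = 0.0133) and Bhlhe40 by 2.42 (SE 0.33, adjusted p = 0.0158) on the log2 scale. Eomes, a T-box factor related to T-bet, went from 1.82 and 2.29 CPM to 15.2 and 29.97 CPM, while Tbx21 in the same sums stood lower in cKO. Ebi3, a subunit gene of interleukin-27 and interleukin-35, rose by 2.84 (SE 0.35, adjusted p = 0.0130) and was the 1 cytokine gene of 3 called. None of 15 interferon gamma response genes, 7 receptor genes, 5 kinase and STAT genes or 7 cytotoxic genes tested was called there by edgeR, with 1, 2, 1 and 4 at an unadjusted p under 0.05 and 0, 1, 1 and 0 called by DESeq2. Over the 7 lists 4 of 42 genes rose, among 3.34% of all genes called, and 19 were called with the block, among 27.7%. In total CD8 T-like cells Gzmk, a granzyme gene, rose by 3.54 (SE 0.49, adjusted p = 0.0274), and Eomes by 2.72 (SE 0.38, adjusted p = 0.0291). Each was the 1 gene of its list called, out of 8 and 4 tested, and with the block 13 of the 40 genes tested in the 7 lists were called, against 7.09% of all genes, while edgeR without it called 0.235% of all genes. In memory CD8 T-like cells edgeR called 3 of 37 other pathway genes higher and 2 lower in cKO, among 0.386% of all genes. Il18r1 (log2 fold change -2.54, adjusted p = 0.00233) and Zeb2 (-2.40, adjusted p = 0.0150) were the lower ones. Gzmk was higher (2.52, adjusted p = 0.0116). In total NK-like cells edgeR and DESeq2 called none of 40, with 1 at an unadjusted p under 0.05. With the block 1 was called, among 0.473% of all genes.

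Cells that held a UMI of Tbx21 were described for Cxcr3 as well. In total CD4 T-like cells Cxcr3 was detected in 67.9% and 54.3% of control and 81.0% and 48.4% of cKO cells with Tbx21, and in 6.53% to 7.49% of those without, with median counts of 5117 to 7341.5 UMIs in cells with Tbx21 and 5691.5 to 7066 in those without. The cells with Tbx21 numbered 56 and 35 in control and 21 and 31 in cKO. In total NK-like cells Cxcr3 was detected in 27.6% and 32.9% of control and 22.9% and 29.7% of cKO cells with Tbx21. Among NK-like cells without Tbx21 the shares were 30.4% and 31.2% in control and 16.7% and 26.8% in cKO. In control YFP+ B-like cells the shares were 24.0% and 47.4% against 7.89% and 13.3%, and the cells with Tbx21 were deeper, with median counts of 10686 and 12034 UMIs against 6062 and 5217. Tbx21 was detected in 10.9% and 8.78% of control YFP+ B-like cells and Cxcr3 in 9.66% and 16.3%, with median counts of 6408 and 5670 UMIs, and after thinning to 2000 UMIs the shares were 3.14% and 2.39% for Tbx21 and 2.98% and 5.62% for Cxcr3. Cells under 2000 UMIs were left out of the thinned shares, which kept 7624 of 7837 and 10017 of 10494 cells. In naive CD4 T-like cells of those libraries, at medians of 5131 and 3409 UMIs, Tbx21 and Cxcr3 were each seen in 1 of 141 cells (0.709%) and in 0 of 29 cells, which allows a share of up to 10.3%. In monocyte or macrophage-like cells of those libraries, 80 and 22 in number at medians of 2759 and 4387.5 UMIs, Cxcr3 was detected in 11.3% and 13.6%, and Tbx21 in 3.75% and in 0 of 22 cells, which allows a share of up to 13.6%. The share of Cxcr3 in control YFP+ B-like cells thus lay below that of monocyte or macrophage-like cells in batch 1, and no order is read from it.

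Over 29 sums of main classes, from total and YFP+ libraries, and 11220 genes, the genes most like Tbx21 by Pearson's r of log2 levels were Apobr (r = 0.939), Gpr65 (r = 0.935) and Car2 (r = 0.932). Those most like Cxcr3 were Gm29243 (r = 0.837), Tspyl4 (r = 0.836) and 1810041H14Rik (r = 0.821), and those most like Ifng were Trdc (r = 0.956), Ccr2 (r = 0.921) and Ncald (r = 0.919). The sums share libraries, so these values only describe likeness.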

How the data were processed

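Single-cell RNA of mouse spleen was captured with a droplet 3′ kit that tags each transcript with a UMI. The authors deposited a matrix of raw UMI counts per gene and barcode for each of the 8 libraries. The submitters' processing notes name GRCm38 and mm10, and the sources used here do not name the aligner or the counter. The study's filter was applied to these counts: a barcode was kept if it held over 200 UMIs and over 100 genes, with mitochondrial UMIs at or under 10%.

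Counts were log-normalised to 10000 UMIs, 2000 variable genes were reduced to 30 principal components, and cells were clustered over 20 nearest neighbours at a Leiden resolution of 1 (Python 3.11.15, igraph 0.11.9), first over all cells and then within classes. Clusters were named from fixed marker lists, and rules for leading genes of another lineage and for ties were set after the clusters had been seen, before any test between groups. A difference from the study's own cell types may come from these rebuilt names. Doublets were scored by simulated pairs and were kept in the main results. The caller's own threshold failed in 3 YFP+ libraries and was replaced there by the median of the others, a choice made after seeing this, and it marked 2.29% to 7.54% of the cells of a library.

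UMI counts were summed per class and library and tested with edgeR 4.0.16 in R 4.3.3 (quasi-likelihood F test, TMM scaling, filterByExpr), with p-values adjusted by Benjamini-Hochberg over all genes tested and a threshold of 0.05. Each comparison held 2 libraries against 2, and a class needed 20 cells in each. The SE was derived from the fold change and its F value. The step was tested on simulated data. DESeq2 1.42.0, other scalings, filters, cell classes and clusterings, a batch block and each library left out were the alternatives. In the main fit the 2 libraries of a group were 2 pools of mice. For 2 libraries against 2, the batch block left 1 residual degree of freedom, as did a fit without 1 library. A very small p from such a fit rests largely on variance that edgeR shares between genes. It is no measure of the agreement between pools.

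Batch numbers in the sample titles mark a shared batch, and whether total and YFP+ libraries of one genotype and batch held cells of the same mice is not stated in the sources used. Libraries of one batch deviated together, with correlations of 0.693 to 0.882 over 8407 genes in B-like sums (log2 CPM with a prior count of 2). The 2 libraries of one group differed beyond counting noise (chi-square per degree of freedom of 151 to 349). They were also of different batches, so spread between pools and between batches cannot be told apart there. Each library was counted as 1 replicate. A blocked value is given beside a result where it changed the call, and beside few others. Intervals cover counting error only, at a level of 95%. Groups without overlap are those where both libraries of one lay beyond both of the other. The share of all genes that separate in this way was not counted in any comparison.

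The 7 members and the 7 lists of 48 other pathway genes were chosen with earlier results of these data known. Named were most of the members tested in a comparison, and Eif3e. The 3 genes most like Tbx21, Cxcr3 and Ifng over log2(CPM + 1), among genes reaching 10 CPM, were named too. Up to 4 of the other pathway genes called were named by smallest p, in the comparisons described for them. Further calls of such genes are not described. They fell in B1-like, GCB-like, plasma cell-like and interferon-response B-like cells, in YFP+ and effector-memory CD4 T-like cells, and in the interaction. Promoter windows were taken from RefSeq. A gene that this rule would name is not reported here.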

Additional observations from a re-analysis of the deposited data

Results flagged for a closer look

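The direction of the genotype difference in Cxcr3 was opposite between classes of the total libraries, with both cKO libraries above both control libraries in CD8 T-like cells and below them in B-like, CD4 T-like and NK-like cells. As log2 ratios of mean CPM the genotype differences were -2.44 in B-like, -0.67 in CD4 T-like, 1.18 in CD8 T-like and -0.53 in NK-like cells. The genotype difference in B-like cells thus lay at -3.621 relative to that in CD8 T-like cells, that in CD4 T-like cells at -1.845 relative to CD8 T-like cells, and that in CD8 T-like cells at 1.711 relative to NK-like cells. Without the cKO library of batch 1 the same differences were -3.634, -2.319 and 1.774. These differences between classes were not tested, and how many of all genes separate in this way was not counted. Within the classes edgeR did not call Cxcr3. Its adjusted p was 0.126 in B-like, 0.178 in CD4 T-like, 0.374 in CD8 T-like and 0.9996 in NK-like cells.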

How the results depend on the processing

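Over all alternatives no fold change of a member that had been called changed its sign; 1918 fold changes kept their direction and their side of the threshold, 98 changed sign without being called in either fit, 106 came to pass the threshold and 22 no longer passed it. The numbers of members called that moved by over 1.5 times are given by setting. The cause of these changes was not tested. With the batch as a replicate block, members called were 1 in total B-like, 4 in YFP+ B-like, 4 in CD4 T-like, 4 in CD8 T-like, 1 in total and 1 in YFP+ plasma cell-like, 1 in total and 2 in YFP+ naive B-like, 2 in total pre-GCB-like, 3 in total GCB-like, 1 in YFP+ MZB-like, 2 in total and 4 in YFP+ B1-like, 1 in total interferon-response B-like, 2 in naive CD4 T-like, 1 in Treg-like, 1 in effector-memory CD4 T-like, 2 in naive CD8 T-like and 1 in memory CD8 T-like cells, 5 in cKO YFP+ against total B-like cells and 3 in the interaction, and the block changed no other call of a member. DESeq2 called 1 in total B-like, 1 in CD4 T-like and 1 in naive CD4 T-like cells, 2 in cKO YFP+ against total and 2 in the interaction. In what follows the share of all genes called under the same setting is in parentheses. RLE scaling left 0 in cKO YFP+ against total (0.2%), and plain UMI totals left 0 there (0%), 0 in YFP+ GCB-like (0.231%) and 0 in YFP+ B1-like cells (0%). A model of all 8 libraries gave 1 in CD4 T-like (5.74%), 0 in YFP+ naive B-like (0.588%), 1 in total GCB-like (0.753%), 0 in total B1-like (0%) and 0 in YFP+ interferon-response B-like cells (0.278%). With no filter on low counts there were 1 in total B-like (0.651%), 1 in CD4 T-like (6.11%), 1 in CD8 T-like (1.35%), 1 in total plasma cell-like (1.01%), 1 in total pre-GCB-like (1.14%), 2 in total (0.703%) and 5 in YFP+ B1-like (3.19%), 1 in total interferon-response B-like (0.501%), 1 in naive CD4 T-like (0.598%) and 3 in naive CD8 T-like cells (0.605%), and 2 in cKO YFP+ against total (2.06%). At a clustering resolution of 0.5 there were 1 in total pre-GCB-like (0.243%), 0 in total B1-like (0.162%), 0 in YFP+ interferon-response B-like (0.471%), 0 in naive CD8 T-like (0.124%) and 1 in memory CD8 T-like cells (0.521%), and at 1.5 there were 1 in Treg-like (0.598%), 2 in effector-memory CD4 T-like (0.573%) and 0 in naive CD8 T-like cells (0.0598%). Leaving out cells with markers of 2 lineages gave 1 in total plasma cell-like cells (0.48%) and 2 in cKO YFP+ against total (1.68%), and leaving out scored doublets gave 2 in the latter (1.72%).

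Leaving out 1 library at a time, with the lone library of a group assumed to vary like the other group, gave 1 to 2 members in total B-like (1.1% to 4.3%), CD4 T-like (3.84% to 9.41%), naive CD4 T-like (0.281% to 1.02%), naive CD8 T-like (0.205% to 0.821%) and total B1-like cells (0.303% to 1.55%). It gave 0 to 2 in CD8 T-like (0.447% to 2.32%) and YFP+ plasma cell-like cells (1.65% to 2.96%). It gave 0 to 1 in total plasma cell-like (0.41% to 1.56%), total pre-GCB-like (0.511% to 1.58%), memory CD8 T-like (0.283% to 0.914%), YFP+ CD4 T-like (0.499% to 0.99%), YFP+ naive B-like (1.57% to 5.31%) and total interferon-response B-like cells (0.186% to 0.931%) and in the interaction (0% to 1.9%). There were 2 to 3 in YFP+ pre-GCB-like (7.05% to 18.6%), 2 to 4 in YFP+ B1-like (1.08% to 7.64%), 0 to 0 in YFP+ interferon-response B-like cells (0.357% to 1.81%) and 2 to 2 in cKO YFP+ against total (3.74% to 9.32%). Over all genes the counts called moved more: 12 in total B-like cells became 2049 with the block and 357 with DESeq2, 990 in YFP+ B-like cells 2973 and 1504, 403 in CD4 T-like cells 3349 and 680, 26 in CD8 T-like cells 785 and 81, 4 in NK-like cells 42 and 1, and 181 in the interaction 2529 and 654. The 2 libraries of a group and, for Cxcr3 in cKO, few UMIs limit the precision.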
